A study of Mus musculus with 8 samples.

Results

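The quantity described here is how far the effect of losing Dlx1 and Dlx2 differed between the basal ganglia and the cortex of the mouse. Dlx1/2 mutant tissue was measured on oligonucleotide arrays in 4 groups of 2 arrays: basal ganglia +/- (BG +/-), basal ganglia -/- (BG -/-), cortex +/- (Ctx +/-) and cortex -/- (Ctx -/-). All 8 arrays of the series entered every comparison. No array of wild-type tissue was used here, so the +/- arrays serve as the reference in both regions and carry 1 mutant copy themselves. Neither age nor strain is given in the labels, nor whether both arrays of a group represent different animals. The p-values therefore cover the spread between arrays alone, and that spread may be technical.

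For each gene, the change in a region is the -/- mean minus the +/- mean of log2(signal + 16). The regional difference is the change in BG minus the change in Ctx, so it is above 0 where the gene rose more, or fell less, in BG than in Ctx. Of 13627 genes tested, 8997 had a mean signal above 64 in both +/- groups, and a relative change was judged only for these. They were chosen by their +/- signal level, which is not tested here. The other 4630 were at or below that level in at least 1 region, where the offset limits the fall that can be measured. The level rule read the +/- arrays, which also enter the changes, but it did not use the regional difference itself. Among genes that passed the test of the regional difference, Crabp1 lay just inside it, with a lower +/- mean of 64.7, followed by Arpp21 at 76.7, and Ebf3 at 56.6 and Dlx2 at 55.3 lay just outside.

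Dlx1 and Dlx2 encode homeobox transcription factors made by progenitors and young neurons of the ganglionic eminences, the ventral zones that form the basal ganglia. Neurons born there either settle in the striatum or migrate tangentially into the cortex, where they become GABAergic interneurons. Many cortical interneurons come from the medial ganglionic eminence (MGE) and carry Lhx6, and part of them make somatostatin or neuropeptide Y. In mice that lack both Dlx genes, such cells are known to collect in the ventral telencephalon instead of reaching the cortex. The arrays measured bulk tissue, in which fewer cells of a type and less RNA per cell cannot be told apart.

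Across probe sets on the log2 scale, 2 arrays of 1 group had Pearson correlations of 0.973 to 0.982, and any 2 of different groups had correlations of 0.93 to 0.977. Each sample is described as basal ganglia or cortex, but another label on it reads blood and adrenal medulla. Markers of the adrenal medulla summed to between 615 and 896 signal units in all 8 arrays, while cortical glutamatergic markers summed to between 27400 and 29100 in Ctx and to between 7640 and 9660 in BG. Several technical and tissue measures moved with the groups. The choroid plexus markers summed to between 13200 and 15300 in Ctx +/- and to between 809 and 1080 in the other groups. The red blood cell markers summed to between 6510 and 6790 in BG +/- against 3340 and 3490 in BG -/-, while Ctx +/- gave 2100 and 2410 and Ctx -/- gave 1480 and 1700. A spiked control RNA (dap) read 1726 and 1941 in BG +/- against 1087 and 1241 in BG -/-, while Ctx +/- gave 644 and 1108 and Ctx -/- gave 439 and 233. The part of these measures in the results below was not tested.

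Most judged genes that passed in Ctx also passed in BG (12 of 19, of which 2 in opposite directions). The 12 were Dlx1, Dlx1as and Dlx6os1, the Y-linked Eif2s3y, Kdm5d and Uty, the X-linked Mid1, and Maf, Nrxn3, Nxph2, Rbms3 and Sst. The sex of the tissue went with the genotype, as described below. A set of genes responded differently in the 2 regions. In Ctx -/-, genes of GABA synthesis and of MGE interneurons fell, among them Gad1, Lhx6, Nxph1 and Sst. In BG -/- the first 3 of these did not pass and Sst rose, while Foxp1, Crabp1 and Tiam2 fell there and Pak3 and Zbtb20 were among the genes that rose. The regional difference passed limma's test, with Benjamini-Hochberg adjusted p below 0.05, for 27 of the 8997 judged genes (0.3%). It was above 0 for 21 of them (0.233%) and below 0 for 6 (0.0667%). One of the 21 has a clone name and is counted without being named. At an unadjusted p below 0.05, 1438 judged genes passed, 724 above 0 and 714 below.

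Of the 21 genes above 0, 16 rose in BG, 7 fell in Ctx, and 2 did both. All 6 genes below 0 fell in BG, and 3 of them fell in Ctx as well. In each region alone, 503 judged genes (5.59%) rose and 351 (3.9%) fell in BG -/-, against 2 (0.0222%) that rose and 17 (0.189%) that fell in Ctx -/-. These counts do not show that a gene was changed in 1 region and not in the other. Of 842 judged genes that passed in BG and not in Ctx, 17 passed the test of the regional difference, and 673 had an unadjusted p below 0.05 for it. Of 7 that passed in Ctx and not in BG, 5 passed it. Both sets were selected on the changes that make up the regional difference, so the selection itself raises these shares. The median judged gene had a regional difference of -0.06, and the median half-width of its 95% interval was 0.49.

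**Figure D1:**
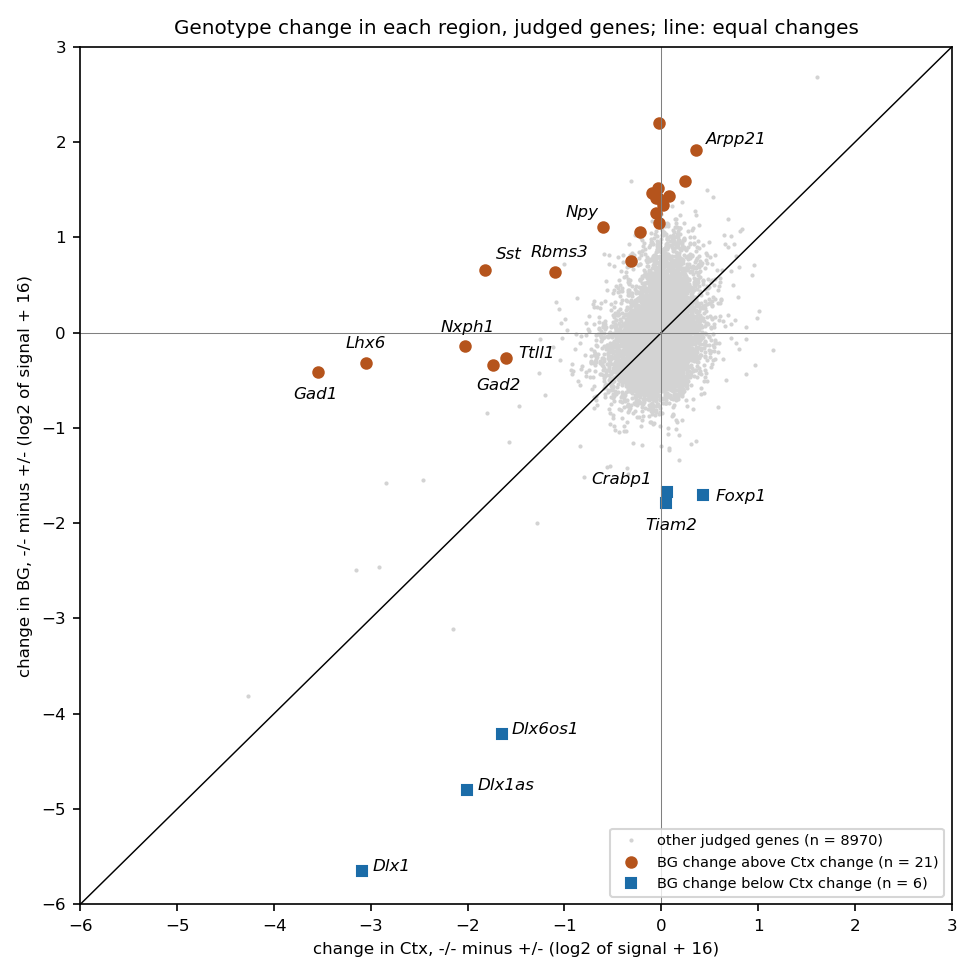
Change in BG (vertical axis) against change in Ctx (horizontal axis), both as -/- minus +/- of log2(signal + 16), for 8997 judged genes. Grey points are the 8970 genes that did not pass the test of the regional difference, orange circles the 21 genes above 0, blue squares the 6 below 0, and the diagonal line marks equal changes; Gad1 and Lhx6 lie far to the left at BG changes near 0, and Foxp1, Crabp1 and Tiam2 lie below the other points near a Ctx change of 0.

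Leaving out 1 array leaves a group with 1, which is then assumed to vary like the other groups. Without Ctx +/- replicate 2, or without Ctx -/- replicate 3, 1 judged gene passed; without any 1 of the other 6 arrays, none passed by limma, with 855 to 1917 judged genes at an unadjusted p below 0.05 over the 8 omissions. Over these omissions the regional difference ranged from 2.90 to 3.38 for Gad1, 2.59 to 2.88 for Lhx6 and 1.59 to 2.17 for Nxph1. After centring each array on its median, 13 judged genes passed, 7 above 0 and 6 below, in place of 21 and 6. With a spread that follows the signal level (limma's trend option), 660 passed, 384 above 0 and 276 below. All 26 named genes that passed kept their direction under each of 17 alternative settings. Each passed in 3 to 8 of the 9 settings that kept all arrays. The 39 named judged genes that did not pass kept their direction too, and all settings reuse the same arrays. A kept direction therefore does not set the genes that passed apart.

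Gad1 and Gad2 encode the 2 glutamate decarboxylases that make the transmitter GABA. Gad1 read 1907 and 1720 in BG +/- against 1427 and 1298 in BG -/-, while Ctx +/- gave 349.9 and 338 and Ctx -/- gave 10.1 and 20.3. Both Ctx -/- arrays were thus far below the 6 others. Over all judged genes, 947 of 8997 (10.5%) had both Ctx -/- arrays below the 6 others. The Ctx change was -3.55 ± 0.18 (SE, adjusted p = 0.000833), and the BG change of -0.41 ± 0.18 did not pass (adjusted p = 0.191). The regional difference was 3.14 ± 0.25 with a 95% interval of 2.54 to 3.74 (adjusted p = 0.0211), the largest above 0 among the judged genes. Gad2 read 502 and 431 in BG +/- against 350.2 and 377 in BG -/-, while Ctx +/- gave 75.5 and 89.1 and Ctx -/- gave 14.3 and 12.3. The BG change minus the Ctx change was 1.40 ± 0.20 (adjusted p = 0.0471), from a Ctx change of -1.74 ± 0.14 and a BG change of -0.34 ± 0.14 (adjusted p = 0.164). Gad2 started in Ctx +/- not far above the level of 64, and with an offset of 64 in place of 16 its regional difference was 0.61. The same offset gave 1.97 for Gad1, and the second, dimmer probe sets gave 1.09 ± 0.28 for Gad1 and 0.36 ± 0.28 for Gad2, neither of which passed. The mean of both Gad2 probe sets was 0.88. Slc32a1, which loads GABA into vesicles, belonged to the same list but was too dim in Ctx +/- to be judged, at a mean of 46.4. Its means were 438 in BG +/-, 33.6 in BG -/- and 0.858 in Ctx -/-, which are given as levels. Unlike those of Gad1 and Gad2, its level in BG was thus far lower in -/- than in +/-.

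Lhx6, the LIM homeobox regulator of MGE-derived interneurons, had the same pattern as the Gad genes. It read 551 and 521 in BG +/- against 429 and 427 in BG -/-, while Ctx +/- gave 164 and 204 and Ctx -/- gave 7.19 and 8.95. The Ctx -/- arrays again lay below all others, as in 10.5% of judged genes. The Ctx change was -3.05 ± 0.14 (adjusted p = 0.000462) and the BG change -0.31 ± 0.14 (adjusted p = 0.194), which gave a regional difference of 2.74 ± 0.20 (95% interval 2.27 to 3.20, adjusted p = 0.0161). The excess of BG over Ctx was 1.47 in +/- and 4.21 in -/- on the log2 scale. With the offset of 64 the regional difference was 1.49, and a second probe set gave 0.91 without passing. Nxph1, a secreted ligand of neurexins found in interneurons, read 317 and 290.5 in BG +/- against 277 and 270.0 in BG -/-, while Ctx +/- gave 127 and 79.7 and Ctx -/- gave 12.2 and 13.3. The test gave a regional difference of 1.88 ± 0.28 (adjusted p = 0.0499). Of its 2 other probe sets, 1 passed at 2.18 and 1 stood at -0.52, the offset of 64 gave 0.99, and the mean of all its probe sets gave 1.18.

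Sst, the gene of the neuropeptide somatostatin, moved in opposite directions in the 2 regions. It read 1907 and 1695 in BG +/- and 2900 and 2807 in BG -/-, but 299.5 and 306 in Ctx +/- and 69.4 and 79.4 in Ctx -/-. Its Ctx -/- arrays lay below all others, as in 10.5% of judged genes. Sst rose by 0.66 ± 0.13 in BG (adjusted p = 0.0254) and fell by 1.82 ± 0.13 in Ctx (adjusted p = 0.00394). The regional difference was 2.48 ± 0.18 (95% interval 2.06 to 2.90, adjusted p = 0.0161). Npy, the gene of neuropeptide Y, read 681 and 647 in BG +/- against 1480 and 1413 in BG -/-, while Ctx +/- gave 197 and 175 and Ctx -/- gave 123 and 110.1. It rose by 1.11 ± 0.13 in BG (adjusted p = 0.00721), and its Ctx change of -0.61 ± 0.13 did not pass (adjusted p = 0.207). The regional difference of Npy was 1.71 ± 0.18 (adjusted p = 0.0275).

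Rbms3, which encodes an RNA-binding protein, was the second gene that passed in both regions in opposite directions. It read 240.3 and 239 in BG +/- against 357 and 408 in BG -/-, while Ctx +/- gave 169.8 and 144 and Ctx -/- gave 62.6 and 66.8. Its regional difference was 1.73 ± 0.19 (adjusted p = 0.0318), from 0.64 ± 0.13 in BG and -1.10 ± 0.13 in Ctx. Its 3 other probe sets ran the same way, at 0.74 to 1.81, and none passed. Ttll1, part of the enzyme that adds glutamate chains to tubulin, was high in all groups but Ctx -/-. It read 1360 and 1314 in BG +/- against 1084 and 1133 in BG -/-, while Ctx +/- gave 882 and 1036 and Ctx -/- gave 299 and 309. The regional difference was 1.34 ± 0.18 (adjusted p = 0.0454), but its 2 other probe sets stood at 0.79 and -0.62, and the mean of all 3 gave 0.50.

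**Figure D2:**
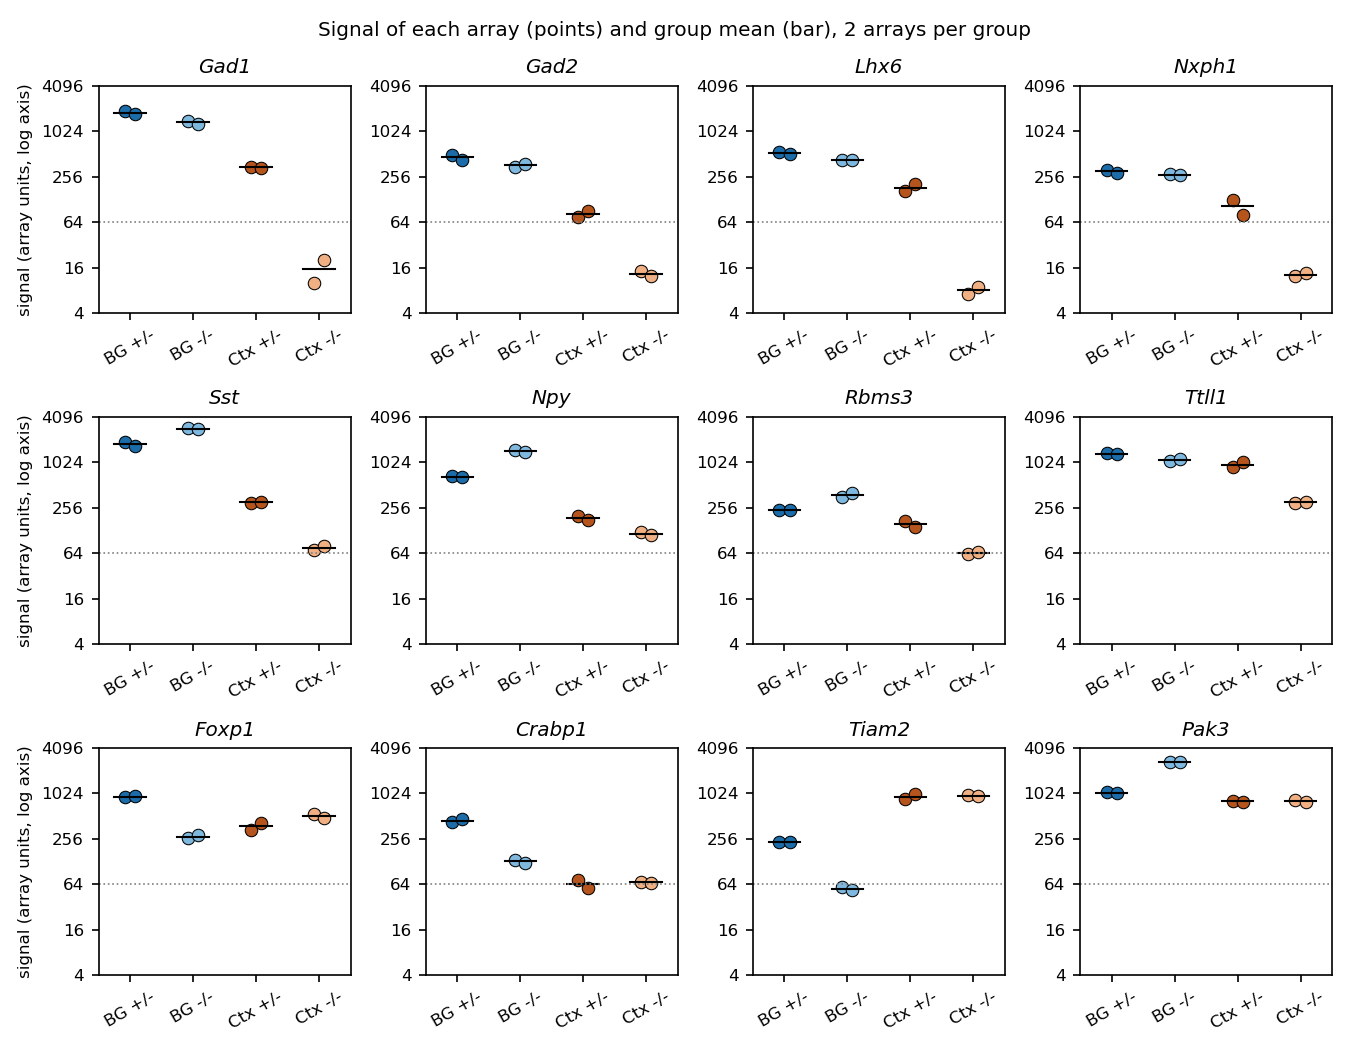
Signal of each array (points, log axis, array units) and mean of the 2 arrays (bar) for 12 genes in BG +/-, BG -/-, Ctx +/- and Ctx -/-; the dotted line marks the level of 64. The Ctx -/- points of Gad1, Gad2, Lhx6 and Nxph1 lie between 7.19 and 20.3, whereas Foxp1, Crabp1 and Tiam2 are lower in BG -/- than in BG +/- and Pak3 is higher.

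The regional difference can also be read as a change of the gap between regions, which is the same quantity and no further evidence. The excess of BG over Ctx went from 2.34 in +/- to 5.48 in -/- for Gad1, from 2.30 to 3.70 for Gad2, from 1.45 to 3.33 for Nxph1, from 2.51 to 4.99 for Sst and from 1.75 to 3.47 for Npy. Of the 12 judged genes on the list of MGE interneurons, 4 passed the test of the regional difference, all above 0 (Lhx6, Sst, Nxph1 and Npy). That compares with 0.233% of all judged genes, and the list's median was 0.70 against -0.06 for all judged genes. In Ctx, 5 of the 12 fell (0.189% of all judged genes fell) and none rose (0.0222%), while in BG 3 rose (5.59%) and 4 fell (3.9%). The list does not move as 1 block in BG: Maf, a transcription factor of these interneurons, Nxph2, Cxcr4 and Ackr3 fell there, while Sst, Npy and the zinc finger gene Zic1 rose.

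Maf was lower in -/- in both regions. It read 569 and 583 in BG +/- against 175 and 199 in BG -/-, while Ctx +/- gave 459 and 356 and Ctx -/- gave 77.5 and 46.3. It fell by 1.55 in BG and by 2.46 in Ctx, and the regional difference of 0.91 ± 0.31 (95% interval 0.17 to 1.66) did not pass (adjusted p = 0.211), and it was 0.56 both with an offset of 64 and as the mean of its probe sets. Cxcr4, the receptor for the chemokine that guides migrating interneurons, leaned the other way. It read 249.6 and 278 in BG +/- against 83.5 and 83.7 in BG -/-, while Ctx +/- gave 287 and 324 and Ctx -/- gave 258 and 217. It fell by 1.49 in BG, and its Ctx change was -0.34, but the regional difference of -1.14 ± 0.20 (95% interval -1.61 to -0.67) missed the threshold at adjusted p = 0.064. Over the alternatives this adjusted p ranged from 0.00528 to 0.219.

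The sequences just upstream of 3 of these genes are printed because they show what DNA lies before the start of a peptide gene that moved in opposite directions, an MGE regulator and a DLX-locus transcript. They are RefSeq sequences of build GRCm38.p6, 250 bases before a transcript start, 5′ to 3′ on the gene's strand. Capitals mark TAATT, the core that homeodomain proteins such as DLX recognise, on either strand, or TGACGTCA, the cAMP response element. Sst lies on chr16:23890845-23891094 (minus strand). Lhx6 has 3 windows in the table, of which chr2:36104061-36104310 (minus strand) is shown, and Dlx6os1 has 2, of which chr6:6869534-6869783 (minus strand) is shown.
Sst: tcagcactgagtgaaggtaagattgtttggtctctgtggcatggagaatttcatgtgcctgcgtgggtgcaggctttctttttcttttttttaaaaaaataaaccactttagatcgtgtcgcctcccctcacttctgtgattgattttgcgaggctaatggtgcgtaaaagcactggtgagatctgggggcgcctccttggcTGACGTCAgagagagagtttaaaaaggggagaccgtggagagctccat
Lhx6: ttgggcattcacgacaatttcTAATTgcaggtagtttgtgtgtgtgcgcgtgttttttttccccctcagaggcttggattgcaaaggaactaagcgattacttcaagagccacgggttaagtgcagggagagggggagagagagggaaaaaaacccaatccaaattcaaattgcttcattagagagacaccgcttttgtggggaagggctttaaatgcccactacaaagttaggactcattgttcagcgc
Dlx6os1: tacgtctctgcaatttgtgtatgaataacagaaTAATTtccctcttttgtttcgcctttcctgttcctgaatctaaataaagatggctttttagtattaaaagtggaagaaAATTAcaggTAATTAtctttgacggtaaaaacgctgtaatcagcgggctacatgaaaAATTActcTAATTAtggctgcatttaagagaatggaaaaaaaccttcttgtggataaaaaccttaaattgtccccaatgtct
The Sst window held no TAATT and 1 TGACGTCA, whose first base lay 48 bases before the start. The Lhx6 window shown was the 1 of its 3 that held TAATT, and the Dlx6os1 window held 7 matches, some of which overlap on opposite strands. Among all promoter windows of that length, TAATT was in 8223 of 32851 (25%) and TGACGTCA in 508 (1.55%). Of the 26 named genes, 22 matched the table, and TAATT was in 15 of their 42 windows (35.7%) and TGACGTCA in 2 (4.76%). Arpp21 alone supplied 9 of the 42 windows and 5 of the 15 with TAATT, and windows of 1 gene are not independent. A match is a run of letters and does not show binding.

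Dlx1, Dlx1as and Dlx6os1 fell in both regions, and by more in BG, where each was brighter in +/-. Dlx1 read 1232 and 1237 in BG +/- against 3.67 and 15.5 in BG -/-, while Ctx +/- gave 138 and 137 and Ctx -/- gave 2.42 and 1.74. The array labels and the targeted gene thus matched in all 8 arrays, although whether its probes fall inside the deleted part was not examined. The Dlx1 change was -5.65 ± 0.21 in BG and -3.09 ± 0.21 in Ctx, and the regional difference -2.56 ± 0.30 (adjusted p = 0.0359). With an offset of 16 a gene cannot fall further than its +/- level allows, and the change of Dlx1 was 89.9% of the largest measurable fall in BG and 94.6% in Ctx. The regional difference of Dlx1 is therefore close to its difference in +/- level, 3.03 on the log2 scale, of which 0.46 was left in -/-.

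Dlx1as, the antisense transcript of Dlx1, read 532 and 602 in BG +/- against 7.84 and 2.22 in BG -/-, while Ctx +/- gave 107 and 102 and Ctx -/- gave 17.2 and 11.1. BG minus Ctx came to -2.80 ± 0.25 (adjusted p = 0.0237). The largest Ctx change the offset allows was -2.92, against a BG change of -4.80. Even a complete loss in Ctx would thus have left a difference below 0. The strand that the probes of this pair detect was not examined here. Dlx6os1, a non-coding transcript of the Dlx5/Dlx6 locus, read 864 and 911 in BG +/- against 39.6 and 26.9 in BG -/-, while Ctx +/- gave 92.6 and 62.7 and Ctx -/- gave 15.2 and 11.9. The test gave a regional difference of -2.56 ± 0.28 (adjusted p = 0.0334). Here too the +/- level limits the reading: the largest Ctx change allowed was -2.55, against a BG change of -4.21. Dlx5 read 719 and 706 in BG +/- against 65.6 and 71.1 in BG -/-, while Ctx +/- gave 93.9 and 92.3 and Ctx -/- gave 1.82 and 17.7. Its regional difference of -0.96 ± 0.39 (95% interval -1.88 to -0.03) did not pass (adjusted p = 0.27). It moved from -0.20 with an offset of 4 to -1.45 with an offset of 64, where it passed (adjusted p = 0.0036, with a range of 0.0036 to 0.923 over all alternatives), and from -1.41 to -0.50 when 1 array was left out. Dlx2 and Dlx6 were below the level of 64 in Ctx +/-, at 55.3 in both arrays for Dlx2 and at 25.3 and 2.17 for Dlx6, so their relative change was not judged.

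Foxp1, Crabp1 and Tiam2 fell in BG and did not pass in Ctx, and the difference itself passed. Foxp1, a forkhead factor of striatal projection neurons that cortical neurons also carry, read 912 and 932 in BG +/- against 261 and 285 in BG -/-, while Ctx +/- gave 339 and 410.2 and Ctx -/- gave 537 and 479. The order of the regions was reversed: Foxp1 was higher in BG than in Ctx by 1.27 in +/-, and lower by 0.86 in -/- (log2). It fell by 1.70 ± 0.14 in BG (adjusted p = 0.00355), and its Ctx change of 0.43 ± 0.14 did not pass (adjusted p = 0.393). The regional difference was -2.13 ± 0.20 (95% interval -2.60 to -1.65, adjusted p = 0.0253). All 7 other probe sets of Foxp1 ran the same way, at -2.42 to -0.86, and 3 of them passed.

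Crabp1, which encodes a cytoplasmic retinoic acid-binding protein, read 426 and 462 in BG +/- against 133 and 123 in BG -/-, while Ctx +/- gave 72.3 and 57.1 and Ctx -/- gave 68.9 and 66.2. Its regional difference was -1.73 ± 0.19 (adjusted p = 0.0334), and the excess of BG over Ctx shrank from 2.52 to 0.79. In cortex it stood near the level of 64 in both genotypes. From there the largest change the offset allows was -2.33, against a change of -1.67 in BG. Tiam2, an activator of the small GTPase Rac that is brighter in cortex, read 233 and 231 in BG +/- against 58.1 and 53.6 in BG -/-, while Ctx +/- gave 856 and 1001 and Ctx -/- gave 967 and 949.7. The BG change minus the Ctx change was -1.84 ± 0.18 (adjusted p = 0.0267). Here the region gap grew, with Ctx above BG by 1.92 in +/- and by 3.76 in -/-. The 2 dimmer probe sets of Tiam2 gave -0.47 and -0.31 without passing, and the mean of all its probe sets gave -0.87.

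Of 14 judged members of the striatal projection neuron list, 1 passed below 0 (Foxp1, against 0.0667% of judged genes), 1 above 0 (Arpp21) and 12 did not pass, with a median of -0.13 over these 14. Another 14 members tested, Rarb among them, were not judged because of their level in a +/- group, so the median does not cover them. Over all members tested, the list summed to between 12600 and 13000 in BG +/- and to between 8850 and 8910 in BG -/-. In Ctx it summed to between 8230 and 8660 in +/- and to between 8670 and 9190 in -/-. Drd1, the D1 dopamine receptor of direct-pathway neurons, had means of 125 in BG +/- and 44.2 in BG -/- against 111 and 117 in Ctx, and its regional difference of -1.32 did not pass (adjusted p = 0.0783). Bcl11b, a zinc finger factor of striatal and of deep-layer cortical neurons, fell by 0.69 ± 0.11 in BG and had a regional difference of -0.68 ± 0.15 (adjusted p = 0.103).

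Genes that rose in BG without passing in Ctx included a kinase, zinc finger genes, chromatin proteins and long non-coding RNAs. There were 13 named genes of this kind, with BG changes of 0.76 to 1.92 and Ctx changes of -0.61 to 0.36. They include Npy, described above. For 10 of the 13, BG lay closer to Ctx in -/- than in +/-. That follows in part from selecting genes that rose in BG relative to Ctx. The share over all judged genes was not counted, so nothing is read from it.

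Pak3, an X-linked kinase that acts on the actin cytoskeleton and neurite growth, read 1069 and 1029 in BG +/- against 2706 and 2669 in BG -/-, while Ctx +/- gave 809 and 794 and Ctx -/- gave 845 and 779.7. The BG -/- mean was 2.56 times the BG +/- mean. The regional difference was 1.33 ± 0.16 (95% interval 0.94 to 1.71, adjusted p = 0.0361), with a BG change of 1.34 ± 0.11 and a Ctx change of 0.02 ± 0.11. All 3 other Pak3 probe sets ran the same way, at 1.20 to 1.71, and 2 passed. Pak3 was the 1 gene of 20 judged on the neurite growth list that passed, and the list's median was -0.21.

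Zbtb20, a zinc finger repressor of the developing forebrain, read 442 and 467 in BG +/- against 1341 and 1475 in BG -/-, while Ctx +/- gave 939.5 and 1023 and Ctx -/- gave 1177 and 1160. The test gave a regional difference of 1.35 ± 0.17 (adjusted p = 0.0381), and all 8 other probe sets ran the same way at 0.67 to 1.36, with 2 past the threshold. Zfp37 and Zfp617, both zinc finger genes, were likewise lowest in BG +/- and highest in BG -/-. Zfp37 read 198 and 159 in BG +/- against 519 and 519.8 in BG -/-, and between 268 and 318 in the 4 Ctx arrays, with a regional difference of 1.56 ± 0.20 (adjusted p = 0.0422). Zfp617 read 192 and 177 in BG +/- against 531 and 518 in BG -/-, and between 378 and 425 in Ctx, with a regional difference of 1.35 ± 0.17 (adjusted p = 0.0376).

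Among genes that act on chromatin, Ubn2, a subunit of a histone chaperone complex, read 135 and 147 in BG +/- against 325 and 340.3 in BG -/-, and between 361 and 379 in Ctx. Its regional difference was 1.17 ± 0.16 (adjusted p = 0.0471). Phf20l1, a reader of methylated lysines, read 236 and 244 in BG +/- against 643 and 687 in BG -/-, and between 831 and 1035 in Ctx, with a regional difference of 1.45 ± 0.20 (adjusted p = 0.0471). Its 4 other probe sets lay between -0.19 and 0.91, and the mean of all gave 0.54. Lcorl, a nuclear corepressor-like gene, read 168 and 130.5 in BG +/- against 442 and 466 in BG -/-, and between 258 and 311 in Ctx. BG minus Ctx came to 1.56 ± 0.23 (adjusted p = 0.0499), its other probe sets gave 0.25 to 0.89, and the mean of all gave 0.89.

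Miat and Mir99ahg are long non-coding RNAs, the second a host transcript of microRNAs. Miat read 761 and 762 in BG +/- against 2065 and 2046 in BG -/-, while Ctx +/- gave 1892 and 1939 and Ctx -/- gave 1863 and 1820. In BG -/- Miat thus stood at the level of both Ctx groups: the gap of BG to Ctx went from -1.31 to 0.16. The test gave a regional difference of 1.47 ± 0.15 (adjusted p = 0.0277), while a second probe set gave -0.02 and the mean of both 0.73. Mir99ahg read 205 and 236 in BG +/- against 470.2 and 479 in BG -/-, and between 377 and 468 in Ctx. Its regional difference was 1.28 ± 0.18 (adjusted p = 0.0471), and its other probe set passed at 1.59.

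Erlec1, a lectin of the endoplasmic reticulum, and Ufl1, the ligase that attaches the ubiquitin-like protein UFM1, also rose in BG. Erlec1 read 123 and 121 in BG +/- against 294 and 335 in BG -/-, and between 275 and 299.7 in Ctx, with a regional difference of 1.31 ± 0.17 (adjusted p = 0.0436). Its other probe sets gave 0.74 and 0.32, and the mean of all gave 0.79. Ufl1 read 111 and 113 in BG +/- against 201 and 199.6 in BG -/-, while Ctx +/- gave 219 and 215 and Ctx -/- gave 172 and 170.4. The BG change minus the Ctx change was 1.07 ± 0.15 (adjusted p = 0.0487). Arpp21, a cAMP-regulated phosphoprotein of striatal and cortical neurons, was close to the level of 64 in BG +/-, at 81.6 and 71.9, against 342 and 328 in BG -/-. In Ctx it read 543 and 674 in +/- and 832 and 729 in -/-. The test gave a regional difference of 1.57 ± 0.21 (adjusted p = 0.0462), but its 4 other probe sets spread from -1.03 to 1.21 and the mean of all gave 0.48.

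**Figure D3:**
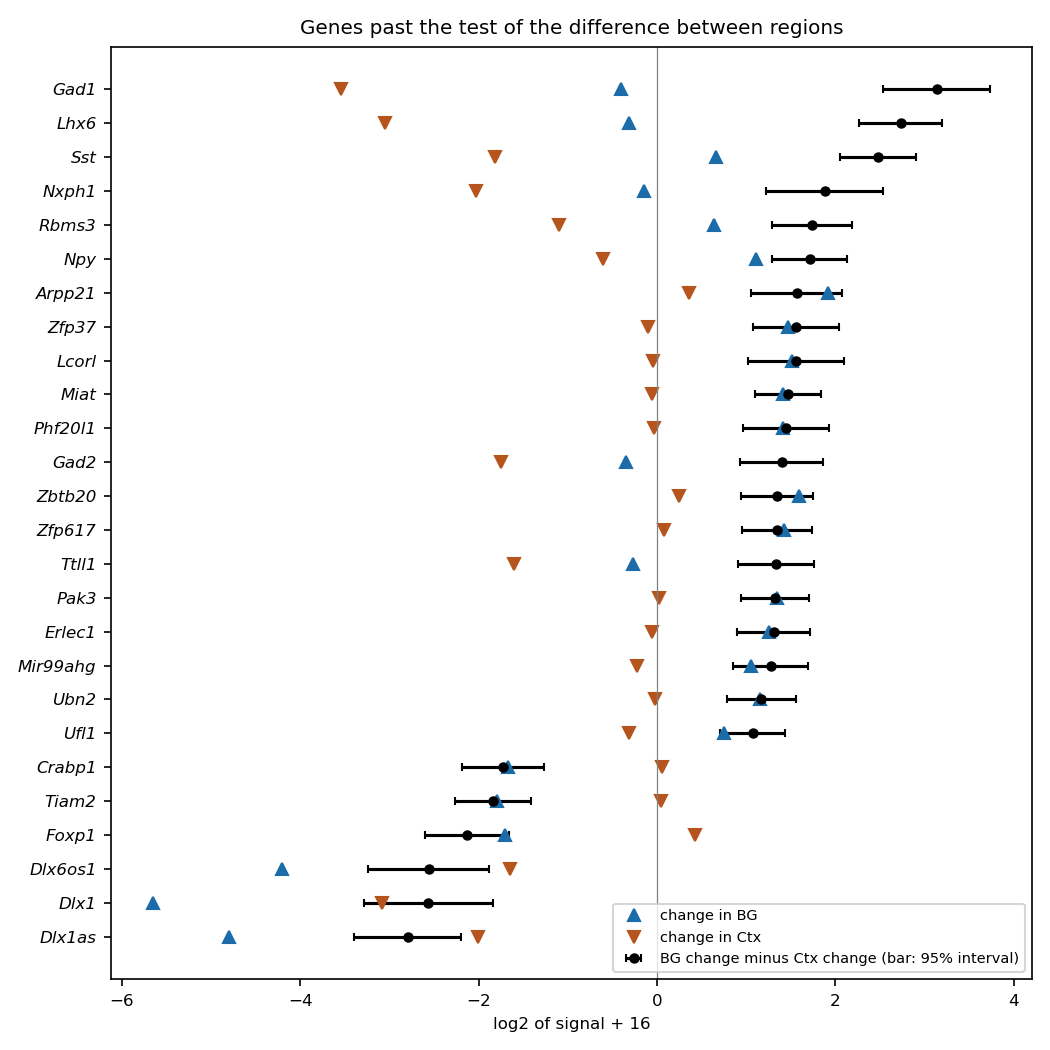
Change in BG (blue triangles, pointing up), change in Ctx (orange triangles, pointing down) and regional difference (black points, bars the 95% interval) on the scale of log2(signal + 16) for the 26 named genes that passed. For the genes from Gad1 to Rbms3 the Ctx change is the larger in size, and for Pak3, Zbtb20, Miat and most others above 0 the Ctx change is near 0 and the BG change makes up the difference.

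The same array order recurred in these rises: in 11 of the 13, both BG +/- arrays were the lowest of all 8. Over all judged genes, 1383 of 8997 (15.4%) had this order, and both BG +/- arrays were the highest of all 8 in 2098. The order holds for genes that passed partly because the test selects them, so no test of it was made. Probe sets without a gene symbol took part strongly. Of 5148 such probe sets 84 passed (1.63%), all 84 above 0, against 91 of 24652 with a gene name (0.369%), of which 73 were above 0 and 18 below. Over all probe sets, 181 of 31526 passed (0.574%), 163 above 0 (0.517%) and 18 below (0.0571%). The spiked dap control was highest in BG +/-, and its part in the array order and in these counts was not tested.

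Other probe sets of the same gene were compared where there were any. For the 13 genes that rose in BG, 26 of 30 other probe sets had the same sign and 5 passed, with a median of 0.92. For the 5 that fell in Ctx without passing in BG, 5 of 7 had the same sign and 1 passed. Of the 6 genes below 0, Foxp1 and Tiam2 alone had other probe sets, all 9 with the same sign, and the 3 that passed were those of Foxp1.

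**Figure D4:**
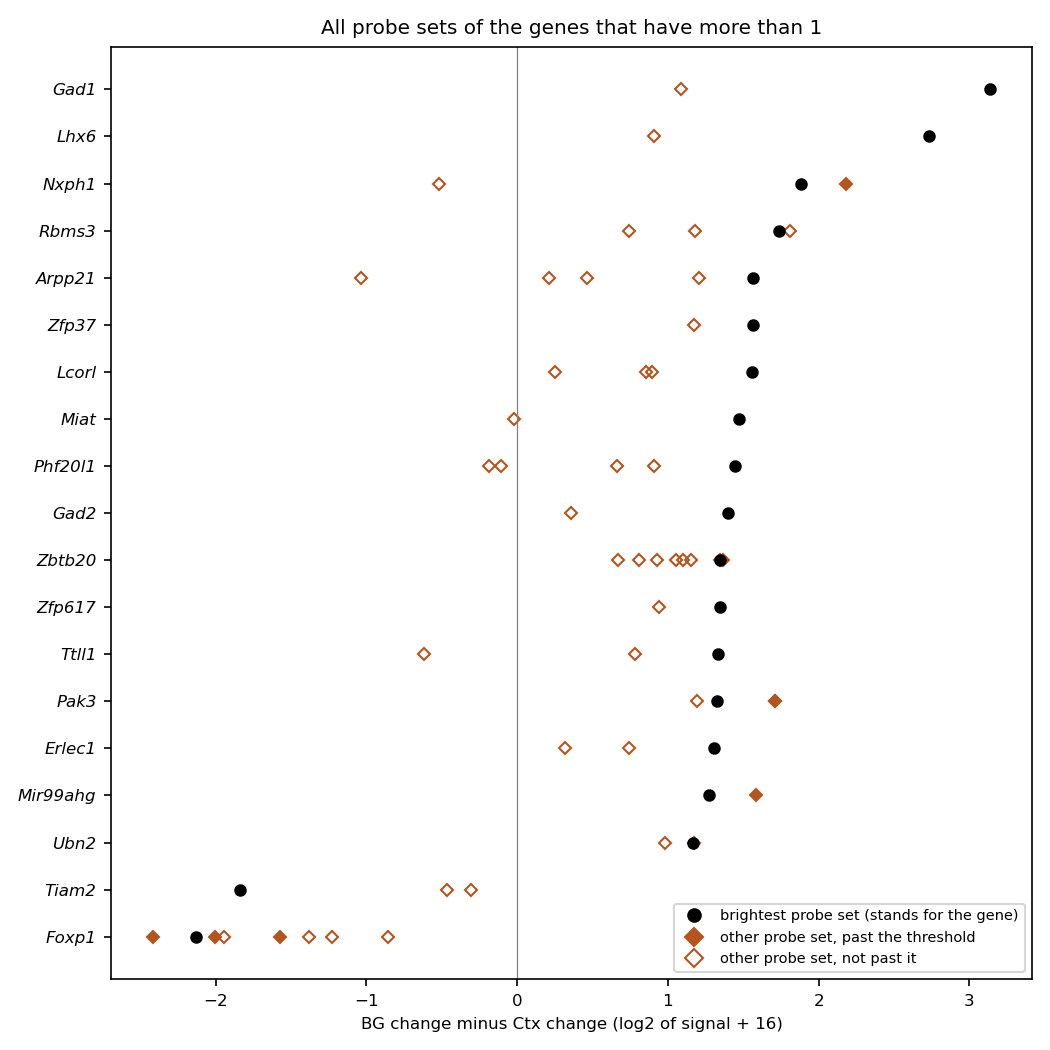
Regional difference (log2(signal + 16), horizontal axis) of each probe set for the 19 named genes with more than 1. Black circles are the brightest probe set, which stands for the gene, filled orange diamonds other probe sets past the threshold and open diamonds those not past it; the probe sets of Foxp1, Zbtb20 and Pak3 lie together, and those of Arpp21, Nxph1 and Ttll1 spread across 0.

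Besides the 5 genes already described, 7 judged genes passed in both regions without passing the test of the regional difference. All 7 changed in the same direction in both. Nrxn3, a presynaptic neurexin, read 627 and 652 in BG +/- against 344 and 357 in BG -/-, while Ctx +/- gave 181 and 134 and Ctx -/- gave 28.0 and 39.4. Its regional difference was 0.96 ± 0.25 (95% interval 0.36 to 1.56, adjusted p = 0.134). Its 4 other probe sets ran from -0.93 to 1.51, their mean with it was 0.51, and the offset of 64 gave 0.41. Nxph2, a relative of Nxph1, read 68.1 and 70.4 in BG +/- against 25.4 and 3.59 in BG -/-, while Ctx +/- gave 116 and 106 and Ctx -/- gave 2.58 and 0.768, with a regional difference of 1.26 ± 0.45 (95% interval 0.19 to 2.33, adjusted p = 0.226). With offsets of 4 and 64 it was 2.06 and 0.63. Those intervals do not show that the regions responded alike.

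The remaining 4, beside Maf, Nrxn3 and Nxph2, were Mid1 on the X chromosome and Eif2s3y, Kdm5d and Uty on the Y. Mid1 read 124 and 115 in BG +/- against 831 and 878 in BG -/-, while Ctx +/- gave 443 and 489.9 and Ctx -/- gave 1545 and 1357. BG minus Ctx came to 1.08 ± 0.18 (95% interval 0.64 to 1.51, adjusted p = 0.0629). The Y-linked Eif2s3y read between 241 and 448 in the 4 +/- arrays and between 1.20 and 6.46 in the 4 -/- arrays, and its regional difference was 0.45 ± 0.25 (95% interval -0.14 to 1.04, adjusted p = 0.393). The sex of the tissue thus went with the genotype in both regions, so a genotype change and a sex difference cannot be told apart within a region. The same contrast of sexes entered both sides of the regional difference. A sex difference that itself varied between the regions therefore cannot be told apart from it. How far sex bears on single genes, such as the X-linked Pak3, was not tested and cannot be in this design.

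The gene lists give the surroundings of these results. The GABA list had 3 judged members, of which 2 passed above 0 (0.233% of all judged genes). Slc32a1 of that list was not judged, and its level was far lower in BG -/- than in BG +/-. The DLX list had 4, of which 3 passed below 0 (0.0667%). For these 3, the +/- level in Ctx allowed a smaller fall than was measured in BG. Tiam2 was the 1 of 21 judged genes of cortical glutamatergic neurons that passed, below 0, and the list's median was 0.14. None passed among 10 judged genes of other interneurons (lateral and caudal eminence), 19 of the Notch pathway, 19 of radial glia, 30 of the cell cycle, 23 of neuron maturation or 24 of axon guidance and migration. With 0.3% of all judged genes past the threshold, a count of 0 in lists of this size is near the background. The cell cycle list had a median of -0.34 (in BG -0.34, in Ctx 0.02), below the -0.06 of all judged genes, with Cenpf at 0.88 and Cdk1 at -0.80 on opposite sides and neither past the threshold (adjusted p = 0.0742 and 0.124). Among genes that came close, Ednrb, the endothelin receptor carried by radial glia, had 1.08 (adjusted p = 0.0542) and Id2, an inhibitor of helix-loop-helix factors, 1.01 (adjusted p = 0.0631). Other probe sets of Ednrb gave 1.07 and 0.24 without passing. Those of Id2 gave 1.30, which passed (adjusted p = 0.0471), and 0.58, which did not. Mib1 and Jag1 of the Notch pathway, a ligase that activates ligands and a ligand, stood at 0.96 and 0.84 without passing, and the mean of all Mib1 probe sets gave 0.58. Nes, the filament gene of neural progenitors, stood at 0.92, but its second probe set gave -0.20 and the mean of both 0.36.

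No judged marker of other tissues passed. At 0.3% of all judged genes past the threshold, lists this short would seldom hold one, so nothing is read from it. The lists were red blood cells with 4 judged members (median -0.30), endothelium and mural cells with 6 (0.06), microglia with 5 (-0.17), meninges with 2 (-0.25), choroid plexus with 1, neighbouring brain with 1, adrenal medulla with 2 and immediate early genes with 4 (-0.23). The defining choroid plexus genes were too dim outside Ctx +/- to be judged. Markers of the neighbouring brain summed to between 1060 and 1160 in BG -/- and between 379 and 664 in the other groups. The part of these differences in the genes that rose in BG was not tested.

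**Figure D5:**
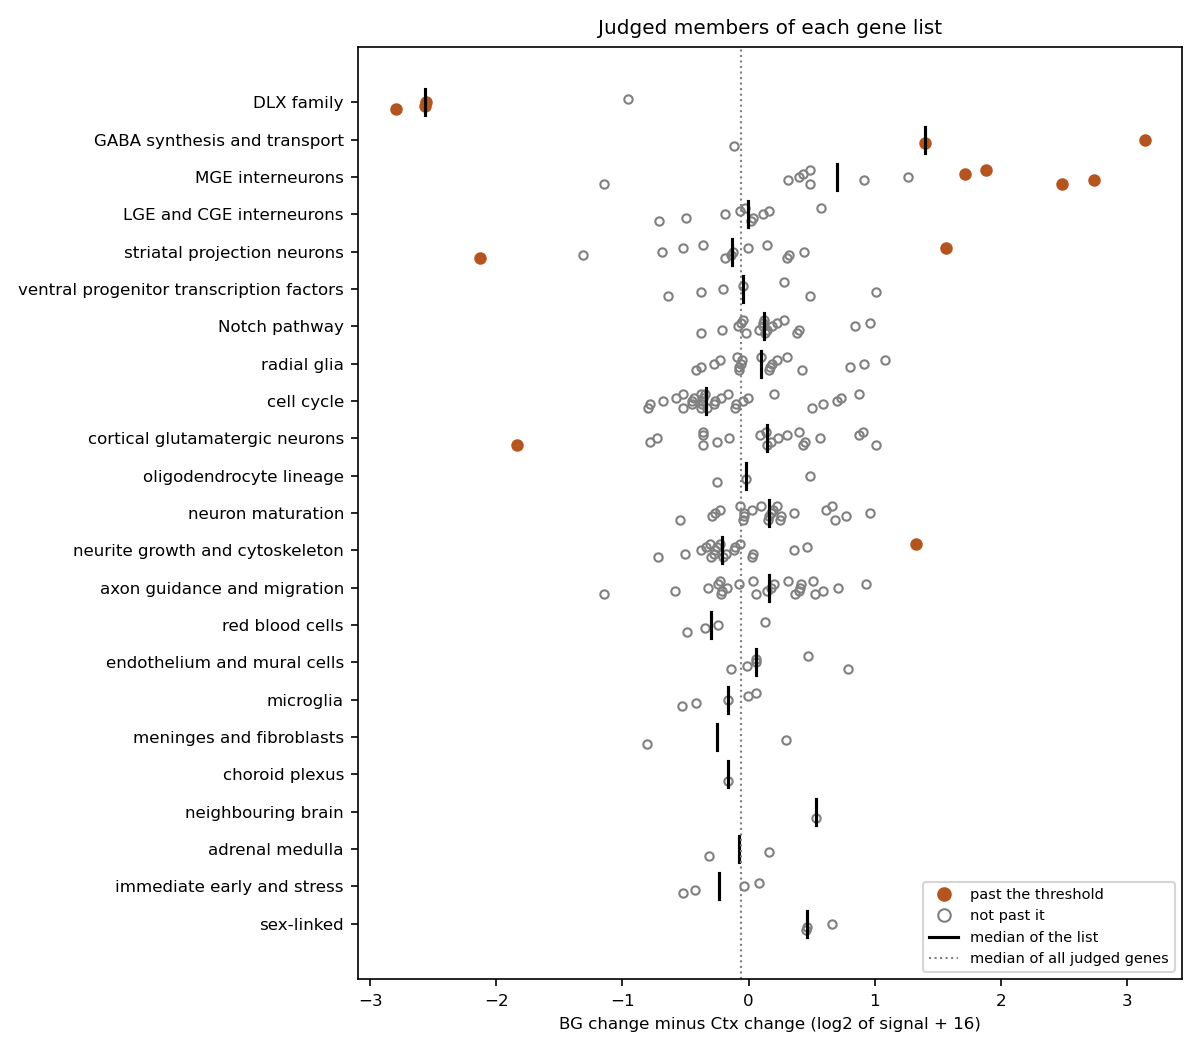
Regional difference (log2(signal + 16), horizontal axis) of each judged member of the 23 gene lists. Filled orange circles passed the test and open circles did not, black bars mark each list's median and the dotted line the median of all judged genes at -0.06; most lists lie around 0, and the filled circles of the MGE interneuron list lie between 1.71 and 2.74.

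Over all 13627 genes tested, 46 passed (0.338%), 37 above 0 (0.272%) and 9 below (0.066%). Of these, 19 were not judged, 16 above 0 and 3 below, and only their levels can be described. Ttr, a choroid plexus gene for the carrier protein transthyretin, read 11634 and 13605 in Ctx +/- and at most 34.3 in the other 6 arrays. Kcne2, a potassium channel subunit of the same tissue, read 135 and 126 in Ctx +/- and at most 11.7 elsewhere. Ttr makes up most of the choroid plexus sum in Ctx +/-. Otx2, a homeobox gene of choroid plexus and of more caudal brain, read 95.4 and 71.2 in BG -/- and 66.9 and 55.6 in Ctx +/-, against 13.3 and 34.9 in BG +/- and 13.6 and 12.0 in Ctx -/-. Fancm, a gene of the Fanconi DNA repair pathway, read 29.4 and 30.8 in BG +/- against 83.6 and 111 in BG -/-, while Ctx +/- gave 75.2 and 113 and Ctx -/- gave 39.8 and 51.2.

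The 3 below 0 were Dlx2, Rarb and Egr3. Rarb, a retinoic acid receptor of the striatum, read 269.7 and 271 in BG +/- and 37.3 and 39.5 in BG -/-, and at most 14.1 in the 4 Ctx arrays. Egr3, an activity-regulated zinc finger gene, read 146 and 153 in BG +/- and 52.4 and 57.5 in BG -/-, and at most 13.0 in Ctx. For both, the cortex had no level from which a fall could be measured. Ebf3, a helix-loop-helix factor just below the level rule, read 58.9 and 54.2 in BG +/- against 286 and 365 in BG -/-, and between 79.7 and 107 in Ctx.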

How the data were processed

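RNA from 8 samples (2 arrays in each of 4 groups named in the titles) was measured on oligonucleotide arrays. Each deposited file value is an intensity on a linear scale, with 1 value for a probe set, and the values show that the authors had scaled the arrays to a common trimmed mean. The software is not given in the sources used here, and no detection calls were used. The 64 controls among 45101 probe sets were dropped. For the rest, the platform annotation gave 1 symbol for 34945, several for 932 and none for 9160. The analysis used log2(signal + 16) and no further scaling. The lowest 30% of probe sets by mean were left out, which kept 31526. In limma 3.58.1 (R 4.3.3), lmFit and eBayes fitted 4 group means, with two-sided tests adjusted by Benjamini-Hochberg over all probe sets kept, 4 residual and 2.76 prior degrees of freedom, and a threshold of 0.05. Fold changes are on the log2(signal + 16) scale, which understates changes of low genes. A gene is its brightest single-gene probe set. The fit was tested on simulated data.

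Named genes are the 4 main DLX genes, all judged genes past the threshold, the 4 largest in each direction that were not judged, from each list the 2 judged genes of smallest p (the nearest to the threshold are described), up to 5 changed in both regions, and those next to the level of 64. Slc32a1, Drd1, Bcl11b, Ackr3 and Zic1 were added after their values were seen. So were Maf, Mid1, Nrxn3 and Nxph2, further genes changed in both regions. The members, the 23 lists and the rules were chosen with earlier results of these data known. Alternatives varied the offset, the filter, the scaling, the fit, the level rule and the arrays used.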

Additional observations from a re-analysis of the deposited data

Results flagged for a closer look

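The change with genotype differed between the regions, by limma's test of the difference with Benjamini-Hochberg adjustment, for the following 26 named genes, given as the BG change minus the Ctx change on the log2(signal + 16) scale. Both genotype effects rest on 2 arrays a group. Among genes of interneurons and GABA synthesis it was 3.14 for Gad1, 2.74 for Lhx6, 2.48 for Sst, 1.88 for Nxph1, 1.71 for Npy and 1.40 for Gad2. It was 1.73 for Rbms3 and 1.34 for Ttll1. All of these but Npy fell in Ctx, and Sst, Npy and Rbms3 rose in BG. Among the other named genes that rose in BG it was 1.57 for Arpp21, 1.56 for Zfp37, 1.56 for Lcorl and 1.47 for Miat. It was 1.45 for Phf20l1, 1.35 for Zbtb20, 1.35 for Zfp617 and 1.33 for Pak3. It was 1.31 for Erlec1, 1.28 for Mir99ahg, 1.17 for Ubn2 and 1.07 for Ufl1. Below 0 it was -2.80 for Dlx1as, -2.56 for Dlx1, -2.56 for Dlx6os1, -2.13 for Foxp1, -1.84 for Tiam2 and -1.73 for Crabp1. For Dlx1as, Dlx1 and Dlx6os1, even a complete loss in Ctx could not have matched the BG change on this scale.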

How the results depend on the processing

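The regional difference passed for 181 probe sets and 27 judged genes. These counts became 78 and 10 with an offset of 4, 907 and 238 with an offset of 64, 10 and 4 with no filter, and 1033 and 249 with the lowest 50% left out. Centring on the median gave 75 probe sets (60 above 0 and 15 below) and 13 judged genes, quantile normalization 120 and 22, and limma's trend option 1816 and 660. Leaving out 1 array gave 3 to 4 probe sets and 0 to 1 judged genes, from fits with fewer samples. The replicate numbers 2 and 3 pair the arrays by number alone (deviations of same-numbered arrays correlated at -0.0262 to 0.0218), and a replicate block gave 4 probe sets and 0 judged genes by limma, with 1221 at an unadjusted p below 0.05. Asking for a mean above 64 over all 4 arrays of a region gave 25 judged genes, of which 23 were shared, while a lower level rule gave 31 and a higher one 19. The mean of all probe sets of a gene gave 17, of which 14 were shared. The cause of these shifts was not tested. All 26 named genes past the threshold kept their direction under all 17 alternatives, none passed in all of them, and Gad1 and Lhx6 each passed in 1 of the 8 fits without an array, the other 24 in none. The 39 named judged genes not past the threshold also kept their direction, and 19 of them passed under some alternative. Signals below 16 were 24.6% to 34.1% of an array, which limits measurable falls.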
